A study of Drosophila melanogaster with 5 samples.

Results

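Haemocytes are the circulating and tissue-attached blood cells of the fly larva. The 10 genes described here mark them. Hml, NimC1, NimB2, eater, Pxn and crq are used as markers of plasmatocytes, the macrophage-like cells that engulf bacteria and cell debris and lay down extracellular matrix. He marks all haemocytes, srp encodes the GATA factor needed to form them, and PPO1 and PPO2 encode the prophenoloxidases of crystal cells, the class that drives melanisation at wounds. Haemocytes are known to attach to tumours of larval imaginal discs whose basement membrane is broken. All 10 genes had a probe set that the array annotation assigns to a single gene. They had 11 such probe sets of 18769 tested, since Pxn had 2, and 1 probe set for each of 11982 genes stood for the gene.

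The arrays (Affymetrix Drosophila 2.0) held RNA of cephalic complexes, which are the brain lobes with the eye-antennal imaginal discs, from 3rd instar larvae. There were 3 arrays of lgl27S3/lglE2S31 larvae at day 4, which lack lgl function (symbol l(2)gl, a regulator of apico-basal polarity), and 2 arrays of FRT82B larvae at day 0. Per the series record each sample pooled 20 pairs of complexes, whereas the study's methods count 20 complexes, and the study's text gives its control strain another name than the labels do. Genotype and age changed together, and cannot be told apart in any difference below. Values are log2 expression after RMA (robust multi-array average), and differences are lgl day 4 minus FRT82B day 0 with the standard error (SE) of the limma fit. A change counts as called below where the adjusted p was under 0.05 and the log2 change reached 1 in either direction.

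The mutated gene itself read 2.44, 2.40 and 2.24 on lgl arrays 1, 2 and 3, against 7.74 and 6.74 on FRT82B arrays 1 and 2 (log2 change -4.88, SE 0.31, adjusted p = 0.0209). Of 9 measured genes that define the dissected tissue limma called 0, with 3 at an unadjusted p under 0.05, against 18.4% of all probe sets. These were nSyb (change -0.68), repo (0.78) and toy (0.72). Among the brightest of the 9 genes, elav, a pan-neuronal RNA-binding protein gene, read 8.83, 9.57 and 9.50 against 9.18 and 10.29. The eye selector gene toy read 9.39, 9.37 and 9.19 against 8.97 and 8.22. The FRT82B arrays were less alike than the lgl arrays. They differed by at least 1 at 994 probe sets, or 5.30%, against 84 to 110 probe sets between pairs of lgl arrays. As a sign of RNA quality, the 3′ minus 5′ difference of the actin control probe sets was 0.35 to 0.58 on lgl arrays and 0.71 and 0.73 on FRT82B arrays. For eIF-4a it was 1.41 to 1.655 against 1.68 and 2.01. The groups overlapped for GAPDH (1.18 to 1.36 against 1.21 and 1.37) and 18S rRNA (2.09 to 2.79 against 2.61 and 2.65). The part of RNA quality in the results below was not tested.

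Of the haemocyte markers, 8 had a higher mean and 2 a lower mean in lgl complexes, but only NimB2 was called. On 6 of the 10 genes (NimC1, NimB2, eater, Pxn, srp and PPO2) every lgl array read above every FRT82B array. Over all tested probe sets this held for 14.7%, and for 24.5% of those brighter than the median, where 9 of the 10 markers lie. The call of 1 in 10 markers stands beside 1.05% of all probe sets called in either direction and 0.543% called higher. At an unadjusted p under 0.05 there were 4 of 10 (NimC1, NimB2, Pxn and PPO2), against 18.4% of all probe sets. When only probe sets brighter than the median were fitted, there were 4 of 9, against 27.2% of the probe sets in that fit. The median log2 change of the 10 markers was 1.07, while the median over all genes was -0.03. Since these are bulk samples, more cells of a type and more RNA per cell cannot be told apart.

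**Figure D1:**
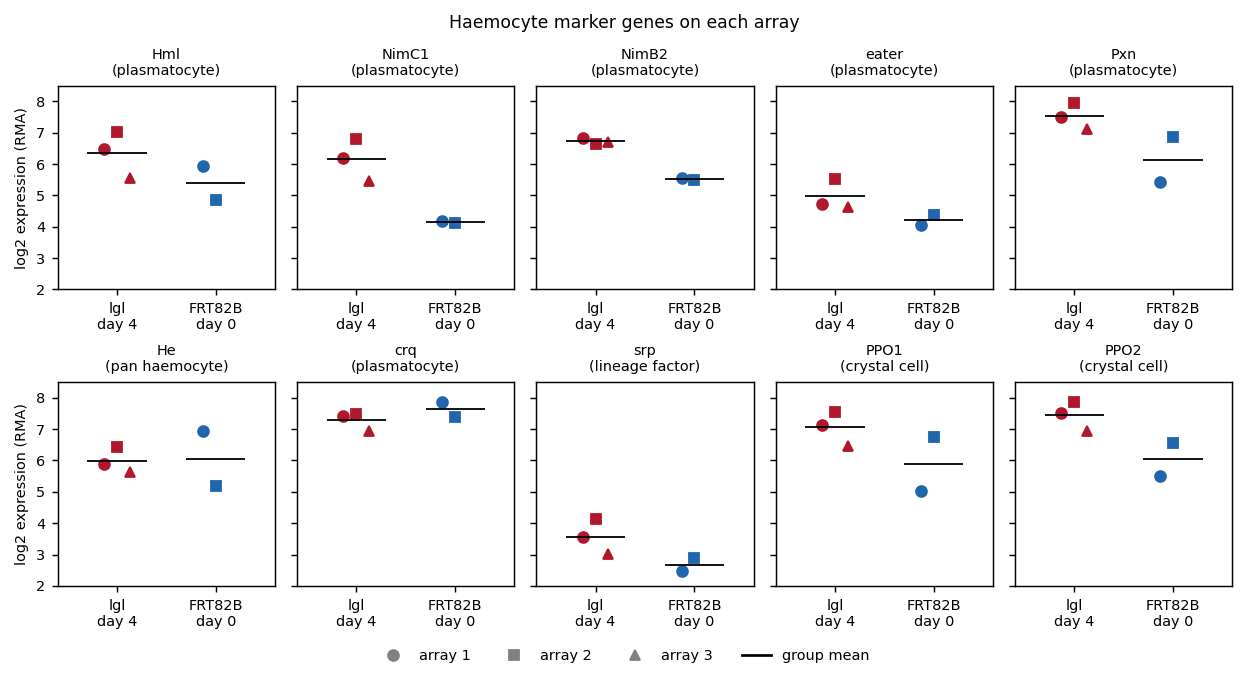
Log2 expression of each haemocyte marker gene, with lgl day 4 (red) left of FRT82B day 0 (blue), 1 symbol per array and the group mean as a line. NimC1 and NimB2 show the widest gaps between groups, and on 9 of 10 panels the lgl arrays fall in the order 2, 1, 3 from high to low.

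NimC1 and eater are phagocytic receptors of the plasmatocyte surface, and both belong to the Nimrod family of proteins with EGF-like repeats. NimC1 read 6.20, 6.80 and 5.46 on the lgl arrays and 4.19 and 4.13 on the FRT82B arrays. It had the largest mean difference of the 10 genes (6.15 ± 0.67 in lgl, SD, n = 3, against 4.16 ± 0.04 in FRT82B, n = 2), a log2 change of 1.99 (SE 0.41) or 3.99-fold. The lowest lgl array lay 1.27 above the highest FRT82B array, yet the limma adjusted p was 0.107 and the gene was not called. When only probe sets brighter than the median were fitted, which leaves fewer tests, it was called (adjusted p = 0.0466). That fit called 4.21% of the probe sets in it, and 2 of the 9 markers in it. The gene eater read 4.73, 5.53 and 4.63 in lgl and 4.04 and 4.37 in FRT82B. Its groups were parted by 0.26, less than the 0.90 that the lgl arrays spanned, and its change of 0.76 (SE 0.32, 95% interval -0.09 to 1.61) was not called (adjusted p = 0.321).

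NimB2 encodes a Nimrod protein without a membrane anchor that is predicted to be secreted. It read 6.82, 6.63 and 6.72 in lgl and 5.55 and 5.48 in FRT82B. Both groups were tight (6.72 ± 0.09, SD, n = 3, and 5.52 ± 0.05, n = 2), and a gap of 1.08 lay between them. On the log2 scale it rose by 1.21 (SE 0.08) or 2.31-fold, and limma gave an adjusted p of 0.0214. The change was smaller than that of NimC1 but had the lowest standard error of the 10 genes. The call was lost with any 1 lgl array left out (adjusted p from 0.125 to 0.150), without FRT82B array 1 (0.0513) and with array weights (0.129), while the change stayed between 1.16 and 1.25.

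Hml encodes hemolectin, a large secreted protein of the haemolymph clot. It read 6.47, 7.02 and 5.56 in lgl and 5.93 and 4.86 in FRT82B. The groups overlapped, since lgl array 3 lay below FRT82B array 1, and the change of 0.96 (SE 0.56) was not called (adjusted p = 0.433). Against FRT82B array 1 alone the lgl mean was 0.42 higher and against array 2 alone 1.50 higher. The interval of the change ran from -0.52 to 2.43 (95%, limma).

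Pxn encodes peroxidasin, a peroxidase of the extracellular matrix that crosslinks collagen IV. Its brighter probe set read 7.51, 7.96 and 7.12 in lgl and 5.42 and 6.86 in FRT82B. All lgl arrays were higher, by a change of 1.39 (SE 0.51), which was not called (adjusted p = 0.258). The lgl mean exceeded FRT82B array 1 by 2.11 but array 2 by only 0.68. The other Pxn probe set stayed between 2.71 and 2.92 on all arrays, below the median probe set of every array, with a change of -0.09 (SE 0.07).

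He and crq did not share the direction of the other markers. He encodes hemese, a glycosylated membrane protein of all haemocyte classes. It read 5.87, 6.44 and 5.63 in lgl and 6.95 and 5.17 in FRT82B, so that the FRT82B arrays enclosed all lgl arrays. Its change of -0.08 (SE 0.60, adjusted p = 0.952) has a 95% interval from -1.67 to 1.50, and it turned to 0.81 when FRT82B array 1 was left out and to 0.09 when lgl array 3 was left out. The gene crq encodes croquemort, a CD36-type scavenger receptor for apoptotic cells. It read 7.43, 7.47 and 6.96 in lgl and 7.87 and 7.39 in FRT82B, a change of -0.35 (SE 0.23, 95% interval -0.96 to 0.27, adjusted p = 0.472), which was -0.11 without FRT82B array 1, -0.58 without FRT82B array 2 and -0.18 without lgl array 3. The groups overlapped, with only lgl array 3 below both FRT82B arrays. Its probe set is of the type that can match more than 1 transcript.

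The transcription factor srp was dim, with values of 3.56, 4.12 and 3.02 in lgl and 2.47 and 2.89 in FRT82B. Only lgl array 2 exceeded the median probe set of its array. All lgl arrays were above both FRT82B arrays, with a change of 0.89 (SE 0.36, 95% interval -0.06 to 1.85, adjusted p = 0.301, not called).

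Both crystal cell genes had higher means in lgl tissue, and neither was called. PPO1 read 7.14, 7.56 and 6.47 in lgl and 5.02 and 6.74 in FRT82B. The groups overlapped, as lgl array 3 lay below FRT82B array 2, with a change of 1.18 (SE 0.62, 95% interval -0.47 to 2.83, adjusted p = 0.409). PPO2, whose product is stored as the crystals that give these cells their name, read 7.53, 7.86 and 6.95 in lgl and 5.52 and 6.57 in FRT82B. There the groups did not overlap, and the change was 1.40 (SE 0.43, adjusted p = 0.197, not called). Against FRT82B array 1 alone PPO1 differed by 2.04 and PPO2 by 1.93, and against array 2 alone by 0.32 and 0.88.

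**Figure D2:**
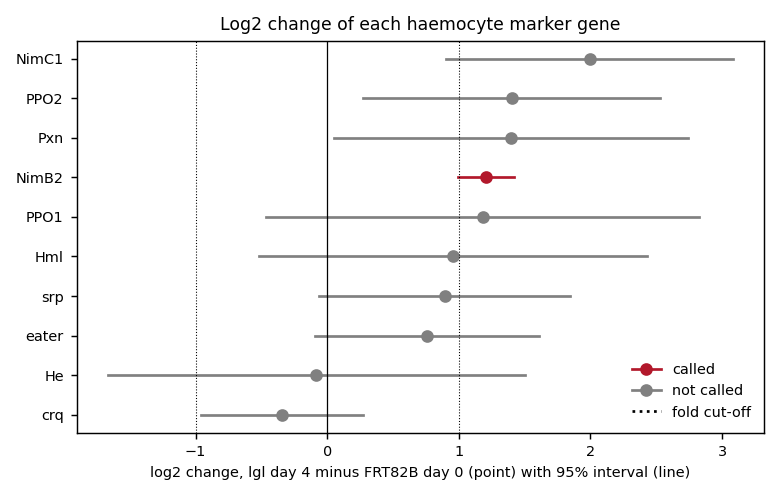
Log2 change of each marker, lgl day 4 minus FRT82B day 0 (point), with its 95% limma interval (line), ordered by size. NimB2 (red, 1.21) was the 1 called gene and has the shortest interval, and the intervals of Hml, eater, He, crq, srp and PPO1 include 0.

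Set side by side, the 7 plasmatocyte and all-haemocyte markers had a median change of 0.96 and the 2 crystal cell markers a mean change of 1.29. This order depended on the control array. Against FRT82B array 1 alone the values were 0.92 and 1.98, and against array 2 alone 0.81 and 0.60. With each gene centred on its mean over the 5 arrays, crystal cell minus plasmatocyte markers averaged 0.26, 0.23 and 0.06 on lgl arrays 1, 2 and 3 and -1.08 and 0.54 on FRT82B arrays 1 and 2. The lgl arrays thus lay between the FRT82B arrays, and no difference between the classes was tested.

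The FRT82B arrays themselves differed by at least 1 at 5 of the 10 markers, against 5.30% of all probe sets. Array 2 read higher than array 1 for PPO1 (by 1.72), Pxn (1.44) and PPO2 (1.05). Array 2 read lower for He (-1.78) and Hml (-1.08). The markers therefore did not move together between the control arrays. NimC1 and NimB2 differed by only -0.06 and -0.07 there.

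Between the lgl arrays, in contrast, the markers moved together. On 9 of 10 genes the lgl arrays stood in the order 2, 1, 3 from high to low, which 16.0% of all tested probe sets showed, and 23.7% of those brighter than the median. NimB2 was the exception. This order, and the direction of array 2 over array 3, were picked after the marker values were seen. The markers were read from the same 3 lgl arrays and are not independent of each other. Array 2 exceeded array 3 by 1.46 for Hml, 1.34 for NimC1, 1.10 for srp and 1.09 for PPO1. A difference of at least 1 in this direction occurred at 27 of 18769 probe sets, or 0.144%, and so at 4 of the 10 markers. The remaining 5 genes with this order differed by 0.52 (crq) to 0.90 (PPO2 and eater). Of the 24 genes that the 27 probe sets name, 4 more are on the other haemocyte lists. These were Glt (1.43), Sr-CI (1.25), Tig (1.16) and the crystal cell factor lz (1.03), which were picked out after their values were seen. The 3′ minus 5′ difference of the 18S rRNA control was lowest on lgl array 2 (2.09, against 2.53 and 2.79 on lgl arrays 1 and 3). Those of actin (0.58, against 0.35 and 0.57) and GAPDH (1.36, against 1.18 and 1.26) were highest on array 2. That of eIF-4a lay between the other arrays (1.62, against 1.41 and 1.655). The part of RNA quality in the order 2, 1, 3 was not tested.

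**Figure D3:**
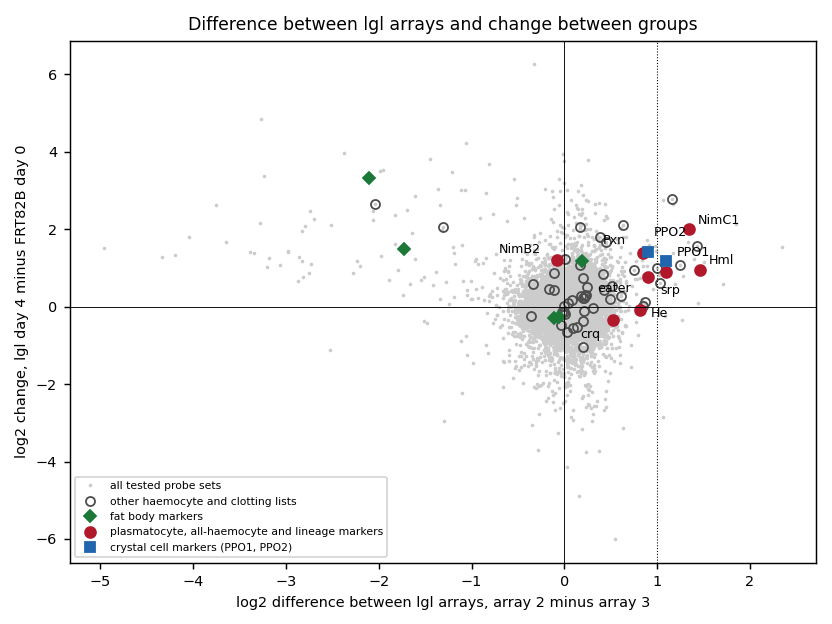
Difference between lgl arrays 2 and 3 (horizontal, log2) against the log2 change between groups (vertical) for all tested probe sets (grey), the 10 markers (red, and blue for PPO1 and PPO2), other haemocyte and clotting lists (open circles) and fat body markers (green). Apart from NimB2 the markers lie to the right of 0, with Hml, NimC1, srp and PPO1 beyond the dotted line at 1, while the fat body gene Lsp2 lies far to the left.

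Other genes of haemocytes were read from lists of 2 to 10 genes. Matrix proteins that haemocytes are known to secrete had a median change as high as that of the markers. Which cells of the samples expressed them was not tested. The calls in these lists, like that of NimB2, were lost when any 1 lgl array or FRT82B array 1 was left out and with array weights. The call of LanA was also lost with an intensity trend and robust prior, where NimB2 kept its own. With probe sets brighter than the median alone, 4 of the 9 matrix genes were called, against 4.21% of the probe sets in that fit. In the full fit 1 of 9 measured genes was called higher and 8 had a change above 0, with a median of 1.07, and 8 of 9 showed the lgl order 2, 1, 3. Over the series, 0.543% of probe sets were called higher and 44.5% of genes had a change above 0. By limma 6 of the 9 had an unadjusted p under 0.05, against 18.4% of all probe sets. LanA, a laminin chain, rose (9.13, 9.18 and 9.01 in lgl against 8.21 and 7.86, change 1.07, SE 0.13, adjusted p = 0.0449). The largest mean difference was that of Tig, the integrin ligand tiggrin, with 7.27, 7.86 and 6.70 in lgl and 3.93 and 5.08 in FRT82B (2.77, SE 0.50, adjusted p = 0.0846, not called). SPARC, a collagen-binding matrix protein, read 9.50 to 9.80 against 8.21 and 8.75, and LanB1 8.58 to 8.89 against 8.79 and 8.75. Both chains of collagen IV overlapped between groups, with changes of 0.03 for Col4a1 and 0.12 for vkg.

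Most of the Nimrod genes lie next to each other on chromosome arm 2L, in the order NimA, NimB1, NimB2, NimB3, NimB4, NimB5, He, NimC1 (RefSeq, Release 6 plus ISO1 MT). Their changes did not follow this order, with -0.56, 0.43, 1.21, 2.05, 0.94, -0.12, -0.08 and 1.99 along that stretch. Of the 9 family members other than NimC1, NimB2 and eater, limma called 0. At an unadjusted p under 0.05 there were 2, NimB3 and NimB4, against 18.4% of all probe sets. NimB3 read 5.91, 4.41 and 5.72 in lgl and 3.25 and 3.34 in FRT82B (adjusted p = 0.140). Array 2 was the lowest lgl array there, as for NimB2 and unlike the other 9 markers. The brightest family members were drpr, an engulfment receptor of glia and haemocytes (8.45, 8.63 and 8.43 against 7.95 and 8.62), and NimA (7.22, 7.29 and 7.20 against 7.41 and 8.18).

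Among 7 measured scavenger receptor and thioester protein genes, Tep3, an opsonin-like thioester protein gene, rose. It read 5.32, 5.84 and 5.67 in lgl and 3.43 and 3.70 in FRT82B, a change of 2.05 (SE 0.19, adjusted p = 0.0295). The other 6 were not called, among them Tep4 (7.13 to 7.42 against 8.12 and 6.79) and Sr-CI, a plasmatocyte scavenger receptor for bacteria (4.61 to 5.86 against 4.74 and 3.42). Of the 7 genes, 3 had an unadjusted limma p under 0.05, against 18.4% of all probe sets. The list's median change was 0.09, but 0.54 without FRT82B array 1 and -0.37 without FRT82B array 2.

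Lamellocytes are the flattened cells that form on wasp parasitism and in some mutants. All 8 measured genes of their list had a change above 0 (median 0.54) and 1 was called, the filamin cher, which other cells express too (8.05, 8.43 and 8.05 against 6.46 and 6.31, change 1.79, SE 0.15, adjusted p = 0.0274). A change above 0 was found for 44.5% of all genes, and 1.05% of all probe sets were called. In the limma fit 5 of the 8 had an unadjusted p under 0.05, against 18.4% of all probe sets. PPO3, the prophenoloxidase of lamellocytes, read 3.69, 4.27 and 3.66 against 3.51 and 3.67, and the surface marker atilla 7.39, 8.07 and 7.62 against 6.50 and 5.56 (1.66, SE 0.36, adjusted p = 0.115, not called). The brightest list members, betaTub60D and msn, overlapped between the groups (changes of 0.20 and 0.27).

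Of 6 measured lineage genes, limma called 0, with 2 at an unadjusted p under 0.05, against 18.4% of all probe sets. These were Pvr, the receptor that haemocytes need to survive (change 0.52), and kn (-0.65). The list's median change was -0.07. That median was 0.27 without FRT82B array 2, -0.41 without FRT82B array 1 and 0.23 with brighter probe sets alone. gcm, a factor shared by glia and haemocytes, overlapped (change 0.23). The crystal cell factors lz (2.84, 3.88 and 2.84 against 2.38 and 2.76) and peb (3.49 on each lgl array against 3.55 and 3.43) were low on most arrays, with 0 called and 0 at an unadjusted p under 0.05. Of 6 measured genes of melanisation and clotting, limma called 0 and 3 passed an unadjusted p of 0.05, against 18.4% of all probe sets. These were fon (change 2.65), Spn28Dc (0.87) and Hayan (0.42). In this list 5 of 6 genes had a change above 0, with a median of 0.44. The gene fon read 8.61, 5.82 and 7.85 in lgl and 4.30 and 5.25 in FRT82B, with array 2 the lowest lgl array. The inhibitor Spn27A read 7.79 to 8.05 against 7.07 and 7.83, and Sp7 6.96 to 7.05 against 6.63 and 7.77.

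**Figure D4:**
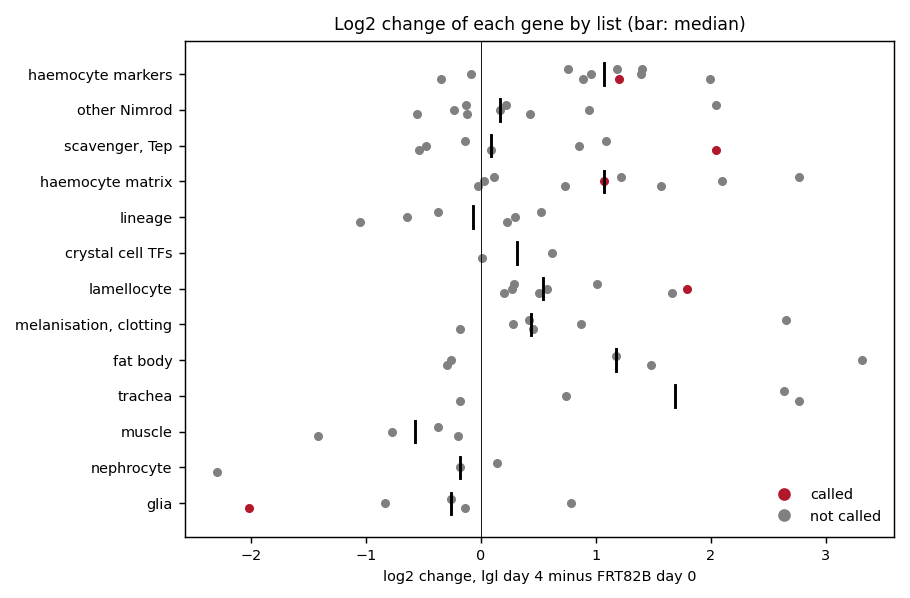
Log2 change of each gene, lgl day 4 minus FRT82B day 0, by list (1 point per gene, red where called, bar at the list's median). The haemocyte markers and the haemocyte matrix list have medians of 1.07 and 1.07, fat body and trachea have 1.18 and 1.69, and muscle -0.57. Without FRT82B array 1 these are 0.75 for the markers, 0.20 for fat body, 1.01 for trachea and -0.11 for muscle.

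Markers of other tissues that a dissection could carry were read the same way. Summed linear expression of 4 trachea markers was 913 to 1210 in lgl and 213 to 453 in FRT82B. By limma 0 were called and 2 (serp and verm) had an unadjusted p under 0.05, against 18.4% of all probe sets. The largest change of the list was that of serp, at 8.04 to 8.17 against 4.33 and 6.35 (2.77, SE 0.61, adjusted p = 0.120). Gasp and verm, proteins of the tracheal lining, read 7.91 to 8.73 against 7.19 and 7.71, and 8.63 to 8.96 against 5.02 and 7.23. The tracheal FGF receptor btl stayed between 3.47 and 3.55 in lgl, against 3.86 and 3.55, near the array medians of 3.79 to 3.86. The sum of 5 fat body markers was 1970 to 6059 in lgl and 1746 to 2691 in FRT82B. Again 0 were called and 2 had an unadjusted p under 0.05, against the same 18.4%. There the lgl arrays stood in another order, since Lsp2, a storage protein, read 11.83, 8.86 and 10.97 against 6.78 and 7.69, and 0 of 5 genes showed the order 2, 1, 3. The list median of fat body, 1.18 on all arrays, was 0.15 without lgl array 1 and 0.20 without FRT82B array 1. The lipoprotein gene apolpp read 10.37 to 10.85 against 11.26 and 10.35. The part of these tissues in the markers' changes was not tested.

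Muscle, nephrocyte and glia markers had medians below 0. Summed expression of 4 muscle genes was 50.5 to 68.9 in lgl and 99.4 to 155 in FRT82B. By limma 0 were called and 1 had an unadjusted p under 0.05, which was Mlc1, against 18.4% of all probe sets. Mlc1 read 4.64 to 5.29 against 6.69 and 6.14. For 3 nephrocyte genes it was 92.4 to 108 in lgl and 130 to 147 in FRT82B, again with 0 called and 1 at an unadjusted p under 0.05. This was Hand, at 2.83 to 3.08 against 5.72 and 4.77 (change -2.29, SE 0.30, limma adjusted p = 0.0516), while sns and Cubn overlapped. In the list 1 gene was called with quantile normalisation, median centring, brighter probe sets alone, an intensity trend with robust prior, and probe sets averaged per gene. Glia, the resident phagocytes of the brain, summed to 1713 to 1935 in lgl and 2721 to 4118 in FRT82B over 5 genes. Gs2, a glutamine synthetase, fell there (change -2.01, SE 0.24, adjusted p = 0.0449), a call lost with any 1 lgl array or FRT82B array 1 left out and with array weights, while nrv2 (-0.83) and the glial factor repo (0.78) were not called.

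The genes whose 5 values followed those of Hml most closely were CG11125, Ude and RhoGAP54D, with root mean square distances of 0.36, 0.38 and 0.38 after centring, among 5990 brighter genes. Of the markers that entered the search, NimB2 was the nearest, at rank 351. Only genes with a mean above the median of all genes (5.62) entered, which left out NimC1, eater and srp. Their distances to Hml were not ranked, so NimB2 need not be the nearest of all the markers.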

How the data were processed

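Per the study's methods, the authors processed the scans with RMA (background correction, normalisation and summary per probe set), and the deposited table holds log2 values. Software versions of that step are not given in the sources used here. Because RMA equalises the distributions of the arrays, a global change in RNA would be lost. Groups came from the sample titles, which number the replicates as biological ones. The 183 control probe sets were left out. Genes were named from the platform annotation, with symbols updated by gene identifier (13647 probe sets with 1 symbol, 402 with several, 4720 with none here), and the brightest probe set stood for a gene.

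Following the study, limma 3.58.1 in R 4.3.3 (lmFit, eBayes) was fitted to all probe sets, with Benjamini-Hochberg adjustment over all of them. The fit was also run on simulated data, with planted changes above the fold cut-off and equal noise in both groups. That run does not cover changes near the cut-off or the unequal spread of the real groups. The members and lists were chosen with earlier results of these data known. Named genes were all members, the called genes of each list, its 2 brightest genes where fewer than 2 were called, and a few singled out after their values were seen. The listed genes Tep1, Tep2, Mcr, MP1, Lsp1alpha, Lsp1beta, Lsp1gamma, trh, Mhc, Act57B, wupA, Eaat1 and Syt1 had no single-symbol probe set and were not used here. Alternatives were other normalisations, filters, variance models and cut-offs, averaging probe sets per gene, the replicate number as a block and leaving out each array. The small number of arrays limits the precision.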

Additional observations from a re-analysis of the deposited data

How the results depend on the processing

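The median change of the 10 markers stayed above 0 in every fit, from 0.75 without FRT82B array 1 to 1.28 without lgl array 3. The median of the plasmatocyte markers lay between 0.62 and 1.21 and the mean of the crystal cell markers between 0.60 and 1.98. The 1 called marker was NimB2, and limma called 2 of 9 markers, NimC1 being the other, when only probe sets brighter than the median were fitted (395 probe sets called in all, against 197). With array weights limma called 0 markers and 12 probe sets, with 2 of 10 markers at an unadjusted p under 0.05, beside 12.2% of all probe sets. Without a fold cut-off 305 probe sets were called. With arrays left out in turn, 0 to 1 markers and 0 to 1306 probe sets were called, the highest without FRT82B array 2, where NimB2 kept its call. With any 1 lgl array left out 0 probe sets were called by limma, 538 to 584 passed the fold at an unadjusted p under 0.05, and 2 to 4 markers had an unadjusted p under 0.05, beside 11.2 to 13.2% of all probe sets. The count of markers with every lgl array above every FRT82B array ran from 6 to 8 with arrays left out, which was tried after seeing the data. Markers with every lgl array below were not counted in it. Over all probe sets the share was 16.5 to 18.6% without an lgl array (6 to 8 markers), 29.2% without FRT82B array 1 (8 markers) and 28.5% without FRT82B array 2 (7 markers), against 14.7% on all arrays. The change of He turned to 0.093 with the replicate block and lay between -0.97 and 0.81 with arrays left out.

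The sample titles do not say whether arrays with the same replicate number were handled together. Deviations of same-numbered arrays correlated at 0.03 and 0.07 over probe sets, for the 2 numbers that both groups have. With 2 FRT82B arrays their deviations mirror each other, so these correlations cannot settle it. With the number as a replicate block limma called 0 markers and 0 probe sets, with 7 of 10 markers (and 11.1% of all probe sets) at an unadjusted p under 0.05. The calls in the other lists (LanA, Tep3, cher and Gs2) were lost with it too, and lgl array 3 then does not enter the contrast. The spread of the FRT82B group rests on 2 arrays, and with 1 of them left out its spread was taken from the lgl arrays.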
